A study of Mus musculus with 8 samples.

Results

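The 9 genes described here are serum response factor (Srf), its cofactor myocardin (Myocd) and 7 genes of the smooth muscle contractile apparatus (Acta2, Tagln, Cnn1, Cnn2, Smtn, Tpm2 and Myh11). They were taken by name from 55291 gene symbols in the count table. All 9 were found there and in the table of length-scaled abundances (TPM), and all 9 were among the 26820 genes with enough counts to be tested. The SRF cofactors Mrtfa and Mrtfb are given as context.

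RNA was sequenced from ventricular tissue of C57BL/6N mouse embryos at E10.5, in 8 libraries that each represent Pkn2 cKO (4) or control (4) embryos. The cKO embryos were Pkn2 fl/fl and carried XMLC2-Cre, which recombines in cardiomyocytes, and the controls were littermates that were Pkn2 fl/fl without Cre. Both groups therefore carried floxed alleles, and only the cKO embryos carried Cre. Endothelial, epicardial and other non-cardiomyocyte cells of the cKO ventricles were not targets of the deletion. Libraries held 47559845 to 56660938 counts.

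SRF is a transcription factor that binds the CArG box, a short A/T-rich element framed by CC and GG. It acts with ternary complex factors at growth-response genes such as Egr1, and with myocardin or the myocardin-related factors MRTF-A and MRTF-B at genes of muscle and of the actin cytoskeleton. The myocardin-related factors are held in the cytoplasm by monomeric actin and released when actin polymerizes. Several genes best known from smooth muscle, Acta2 and Tagln among them, are also expressed transiently by cardiomyocytes of the early embryonic heart.

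Promoter sequence is shown for the members in which a CArG box was found, because it is the element through which SRF acts. RefSeq promoters on GRCm38.p6, from 250 bases before to 50 bases after the transcription start, were given for 6 of the 9 genes (Srf, Acta2, Cnn1, Cnn2, Smtn and Tpm2). Promoters of Myocd, Tagln and Myh11 were not analysed here. The 120 bases just before the start are printed 5′ to 3′ on the strand of the gene, with each CArG box in capitals. The Srf stretch lies at chr17:46556163-46556282 on the minus strand, the Cnn2 stretch at chr10:79988480-79988599 on the plus strand and the Acta2 stretch at chr19:34255374-34255493 on the minus strand.
Srf: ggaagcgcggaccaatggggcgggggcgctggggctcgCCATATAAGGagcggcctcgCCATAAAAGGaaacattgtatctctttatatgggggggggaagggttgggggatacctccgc
Cnn2: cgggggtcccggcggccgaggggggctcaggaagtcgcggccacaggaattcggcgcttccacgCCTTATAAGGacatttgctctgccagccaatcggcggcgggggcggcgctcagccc
Acta2: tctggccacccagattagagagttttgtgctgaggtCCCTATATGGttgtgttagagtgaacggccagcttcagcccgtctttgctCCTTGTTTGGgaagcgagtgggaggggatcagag

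The Srf promoter held 2 exact CArG boxes, CCATATAAGG from 82 to 73 bases and CCATAAAAGG from 62 to 53 bases before the start. The Cnn2 promoter held 1, CCTTATAAGG, from 56 to 47 bases before it. In Acta2 the 2 capitalised elements, CCCTATATGG and CCTTGTTTGG, each differ from the pattern at 1 inner base. No match, with or without 1 mismatch, was found in these windows of Cnn1, Smtn and Tpm2. Because the pattern is the same on both strands, 1 search covered both. An exact match was present in 1.63% of the 32851 promoters in the table, and a match with at most 1 inner mismatch in 9.98%. Matches describe the letters of these windows only.

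The check of the labels came first. Pkn2 was at 83.1, 77.6, 79.6 and 84.3 CPM (counts scaled to the same total, on TMM-scaled library sizes) in cKO replicates 1 to 4 and at 133, 139, 152 and 153 CPM in control replicates 1 to 4. All 4 cKO libraries lay under all 4 control libraries, and the cKO mean was 56.3% of the control mean. The log2 fold change was −0.83 (SE, the standard error of this value, 0.060 and adjusted p = 7.67e-06). All p-values adjusted by the Benjamini-Hochberg method are from edgeR's quasi-likelihood test over all genes tested, and positive values of the log2 fold change mean a higher level in cKO. A gene was called at an adjusted p of at most 0.05.

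None of the 9 SRF and smooth muscle genes was called in cKO ventricles. Their log2 fold changes ran from −0.35 for Tagln to 0.21 for Tpm2, with 4 genes higher and 5 lower. The count of 0 called members stands beside 0.858% of all genes tested, or 0.515% higher and 0.343% lower. DESeq2 and limma-voom also called 0 of the 9. The median log2 fold change of the 9 genes was −0.01, and that of all genes tested was −0.00085. At an unadjusted p under 0.05 there were 4 members, Srf and Tagln lower and Cnn1 and Tpm2 higher, where 12.8% of all genes tested and 18.3% of the 14302 genes with a mean of at least 1 CPM reached that level. In 3 of the 9 genes (Srf, Tagln and Tpm2) the 4 cKO and 4 control values in CPM did not overlap, as in 6.91% of all genes tested and 9.96% of those with a mean of at least 1 CPM.

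**Figure D1:**
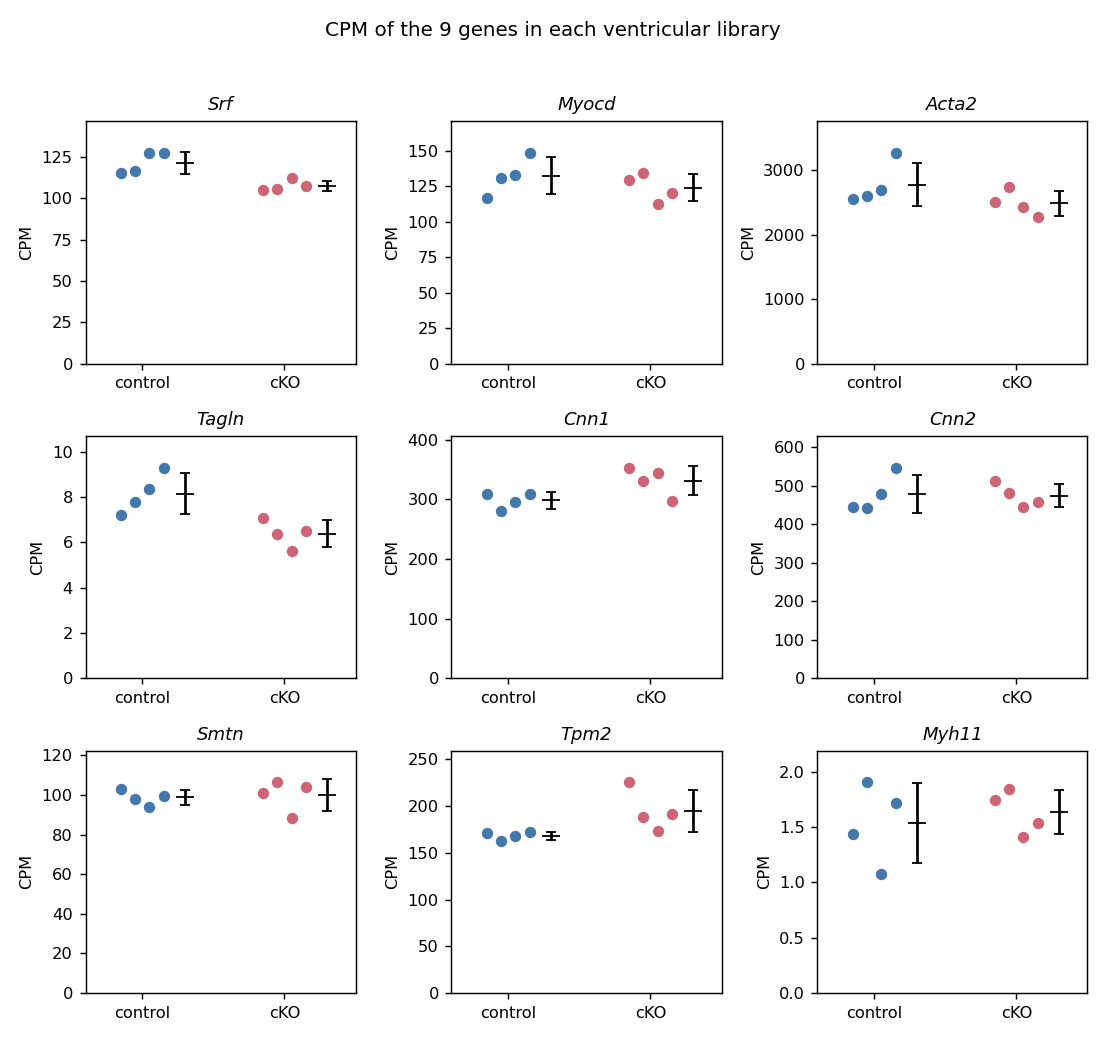
CPM of each of the 9 genes, with 1 point per library, for control (blue) and cKO (red) ventricles. The bar beside each group is the mean ± SD of 4 libraries, and each vertical axis starts at 0. Srf and Tagln points are lower and Tpm2 points higher in all 4 cKO libraries than in the 4 control libraries, and the points of the other 6 genes overlap.

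Srf (ENSMUSG00000015605, chromosome 17 of GRCm38, 46548329 to 46556175, minus strand) was at 105, 106, 112 and 108 CPM in cKO, while controls had 115, 117, 128 and 127 CPM. The highest cKO library thus lay just under the lowest control library. On the log2 scale Srf differed by −0.18 (SE 0.056, 95% interval −0.29 to −0.06, adjusted p = 0.158), a cKO level of 88.5% of the control mean. A two-sided exact permutation test on log2 CPM gave p = 0.0286, the smallest that 4 libraries against 4 allow. In TPM, which scale for gene length, Srf was at 72.7 ± 1.23 in cKO and 81.0 ± 4.32 in controls (mean ± SD, n = 4 each), and the groups did not overlap either.

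Myocd, the cofactor that drives muscle genes together with SRF, lies on chromosome 11 (ENSMUSG00000020542, 65176561 to 65269989, minus strand). It was at 129, 134, 113 and 121 CPM in cKO, while controls had 117, 131, 133 and 149 CPM. The groups overlapped over most of their range, and the log2 fold change was −0.09 (SE 0.073, 95% interval −0.25 to 0.06, adjusted p = 0.687). The related cofactor Mrtfa was at 30.4 ± 2.16 CPM in cKO, while controls had 28.3 ± 1.64 CPM (SD, n = 4 each), with a log2 fold change of 0.11 (adjusted p = 0.601). Mrtfb was at 56.1 ± 4.33 and 50.6 ± 2.49 CPM, with a log2 fold change of 0.15 (95% interval 0.01 to 0.29, adjusted p = 0.344).

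As a share of the summed TPM of the 3 cofactors, Myocd made up 64.5% ± 0.741 in cKO and 67.8% ± 2.04 in controls (SD, n = 4 each), and its ranges overlapped at 65.3% to 65.6%. Mrtfb made up 18.2% ± 0.263 in cKO and 16.2% ± 1.59 in controls. Its cKO range of 17.9% to 18.5% lay above its control range of 14.7% to 17.8%. Myocd was therefore the most abundant transcript of the 3 cofactors per length in both groups, and these shares were not tested.

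Acta2, which encodes smooth muscle α-actin and also marks the early myocardium, lies on chromosome 19 (ENSMUSG00000035783, 34241090 to 34255590, minus strand). It was the most abundant of the 9 genes, at 2503, 2732, 2428 and 2275 CPM in cKO, while controls had 2553, 2591, 2693 and 3265 CPM. Control replicate 4 stood above the other libraries, and cKO replicate 2 lay inside the control range. The log2 fold change was −0.16 (SE 0.080, 95% interval −0.33 to 0.01, adjusted p = 0.431). In TPM the levels were 2233 ± 176 in cKO and 2455 ± 261 in controls.

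Acta2 made up 11.3% ± 0.744 of the summed TPM of the 6 actin genes in cKO and 12.4% ± 0.718 in controls (SD, n = 4 each), with overlapping ranges. The shares of Acta1 (4.22% against 3.45%), Actb (6.21% against 5.28%) and Actg1 (5.17% against 4.54%) were higher in each cKO library than in each control library. Actc1, the cardiac actin, held the largest share, with 73.1% in cKO and 74.3% in controls. Actin coding sequences are similar, so that some reads may be split among these genes and their shares are uncertain. How many reads this affects was not tested.

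Tagln, which encodes the actin-binding protein transgelin or SM22α, had the lowest log2 fold change of the 9 genes. It lies on chromosome 9 (ENSMUSG00000032085, 45929619 to 45936058, minus strand). Its counts were 357, 306, 271 and 363 in cKO and 389, 374, 472 and 464 in controls, which is 7.08, 6.36, 5.62 and 6.48 CPM against 7.19, 7.76, 8.34 and 9.30 CPM. The groups did not overlap, although cKO replicate 1 and control replicate 1 differed by little. Its log2 fold change was −0.35 (SE 0.119, 95% interval −0.60 to −0.10, adjusted p = 0.194), and the exact permutation p was 0.0286, the smallest possible.

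In the TPM table Tagln was at 649, 585, 453 and 589 in cKO and at 573, 718, 705 and 824 in controls. Here the groups overlapped, since control replicate 1 lay below 3 of the 4 cKO libraries. The means were 569 ± 82.7 and 705 ± 103 TPM (SD, n = 4 each), and the two-sided exact permutation p on log2(TPM + 1) was 0.114. The direction was the same in both tables, and the groups were separate in the counts and not in TPM.

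The 2 tables also placed Tagln at very different levels. It was at 0.0114 CPM for each TPM, while the other 8 genes lay between 1.12 (Acta2) and 3.76 (Myh11). Among the 9334 genes with a mean of at least 10 TPM, the median was 1.44 CPM per TPM and the 5th to 95th percentiles were 0.0938 to 4.06. A ratio below that of Tagln was found for 182 of them (1.95%). By count Tagln would be a low gene, and by TPM it was the second most abundant of the 9. The ratio also depends on transcript length, since CPM do not scale for it.

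Tagln shares its locus with genes on the other strand. In the GENCODE vM39 annotation, 66.7% of its 2044 exon bases are also exon of an opposite-strand gene, 60.7% of them of Gm48529 and 6.02% of Pcsk7. The share was 35.1% for Cnn1 (with Elof1), 19.8% for Smtn, 9.33% for Acta2 and 1.87% for Myocd, and 0 for Srf, Cnn2, Tpm2 and Myh11. Over all genes of at least 10 TPM, overlap was counted on either strand. The 197 with at least 90% of their exon bases overlapped had a median of 0.0884 CPM per TPM. The 6569 with less than 10% overlapped had 1.63. The first of these groups includes small nucleolar RNAs such as Snord78 (0.0762) and pseudogenes such as Rpl10a-ps1 (0.124). Low ratios also occur without overlap, as in the pseudogene Rpl5-ps1 (0% overlapped) at 0.00502. The 2 groups were not matched for length or kind of gene, so that their medians do not isolate overlap. Tagln, at 66.7%, is in neither group. Genes overlapped at shares nearer to its own varied. Examples are Stk16 (70.2%) at 1.60 CPM per TPM, Tomm40l (76.5%) at 0.823, Edf1 (74.3%) at 0.408 and Gm37486 (69.1%) at 0.227. Gm15583 (76.0%), with a mean of only 0.205 CPM, was at 0.0179. All of these examples were above Tagln, at 0.0114. The library kit named in the labels does not mark strand, and the treatment of reads that fall on more than 1 gene was not given in the sources used here. Without strand, reads of Tagln and of its opposite-strand neighbours cannot be told apart in the shared bases, so that its level is uncertain in either table. The exons on which the authors counted may differ from those of vM39, since positions in the TPM table are those of GRCm38. The part of the overlap in the low counts was not tested.

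Gm48529 itself was at 2.04 to 4.27 CPM and 27.1 to 51.6 TPM in cKO, and at 2.44 to 4.47 CPM and 25.5 to 47.4 TPM in controls, so that its groups overlapped. Pcsk7, which encodes a proprotein convertase, was at 39.4 to 42.6 CPM in cKO, while controls had 35.8 to 40.3 CPM. Gm48529 was lower than Tagln in both tables, and Pcsk7 was higher than Tagln by count and lower by TPM.

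**Figure D2:**
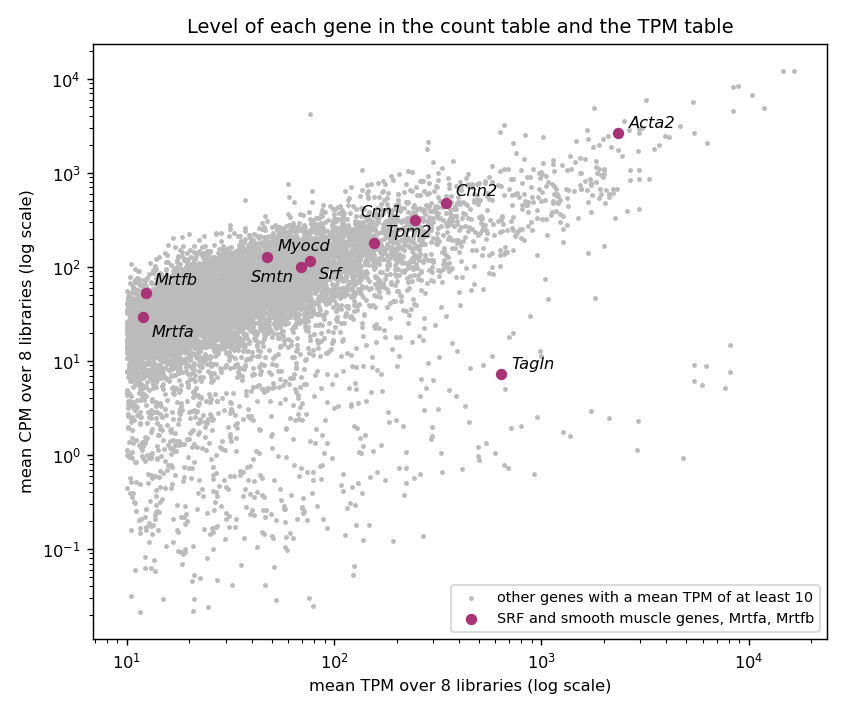
Mean CPM against mean TPM over the 8 libraries for genes with a mean of at least 10 TPM, both axes on a log scale, with the SRF and smooth muscle genes and their cofactors in purple. Genes at 0 CPM and Myh11, at 0.421 TPM, are not drawn. Tagln lies far below the other marked genes, at 0.0114 CPM per TPM.

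The calponins are actin-binding proteins that regulate actomyosin. Cnn1, calponin 1 (ENSMUSG00000001349, chromosome 9, 22099216 to 22109630, plus strand), was at 353, 331, 344 and 297 CPM in cKO, while controls had 309, 280, 295 and 309 CPM. Only cKO replicate 4 lay inside the control range. This gave a log2 fold change of 0.15 (SE 0.063, 95% interval 0.02 to 0.28, adjusted p = 0.321). Cnn2, the more widely expressed calponin 2 (ENSMUSG00000004665, chromosome 10, 79988584 to 79996062, plus strand), was at 512, 481, 444 and 457 CPM in cKO, while controls had 446, 443, 477 and 547 CPM. Its groups overlapped throughout, with a log2 fold change of −0.01 (95% interval −0.17 to 0.14, adjusted p = 0.968), which was 0.03 on the TPM scale. Of the summed calponin TPM, Cnn1 took 28.4% in cKO and 26.4% in controls, with overlapping ranges.

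Tpm2, β-tropomyosin of the thin filament, lies on chromosome 4 (ENSMUSG00000028464, 43514711 to 43523595, minus strand). It was at 226, 189, 173 and 192 CPM in cKO, while controls had 171, 163, 168 and 173 CPM. The control libraries lay close together, and the lowest cKO library was just above the highest of them. Tpm2 had a log2 fold change of 0.21 (SE 0.070, 95% interval 0.06 to 0.36, adjusted p = 0.187), and the exact permutation p was 0.0286, the smallest possible. In TPM the levels were 168 ± 19.9 and 143 ± 2.06 (SD, n = 4 each), again without overlap. When cKO replicate 3, the cKO library nearest to the controls, was left out, Tpm2 was called with a log2 fold change of 0.26 (adjusted p = 0.0387). No other setting called a member.

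Tpm2 was a minor tropomyosin in these ventricles. It made up 3.15% ± 0.354 of the summed TPM of the 4 tropomyosin genes in cKO and 2.63% ± 0.124 in controls (SD, n = 4 each), with ranges that overlapped narrowly. Tpm1, the main tropomyosin of the heart, made up 85.1% in cKO and 86.6% in controls, and each cKO share was below each control share. The reverse was seen for Tpm4, a cytoskeletal tropomyosin, with 7.32% and 6.72%. Shares of a sum move against each other by construction, and none of them was tested.

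The groups of Smtn and Myh11 overlapped. Smtn, which encodes smoothelin, an actin-associated protein of contractile smooth muscle (ENSMUSG00000020439, chromosome 11, 3517523 to 3539292, minus strand), was at 101, 107, 88.6 and 104 CPM in cKO, while controls had 103, 98.3, 94.2 and 99.3 CPM. Its log2 fold change was 0.02 (SE 0.063, 95% interval −0.11 to 0.15, adjusted p = 0.946). Myh11, smooth muscle myosin heavy chain and the most specific of these genes for differentiated smooth muscle (ENSMUSG00000018830, chromosome 16, 14194535 to 14291372, minus strand), was at 1.64 ± 0.199 CPM in cKO, while controls had 1.54 ± 0.362 CPM (SD, n = 4 each). It had 61 to 92 counts per library, and its log2 fold change of 0.09 had a 95% interval of −0.36 to 0.54 (adjusted p = 0.924), the widest of the 9. Differences of either sign inside that interval are not excluded.

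**Figure D3:**
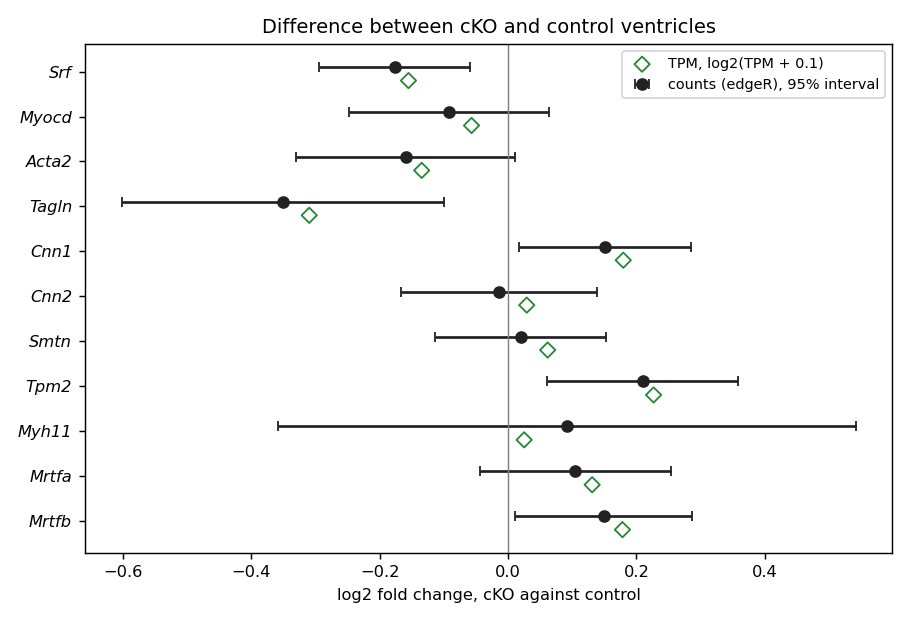
Log2 fold change, cKO against control, of the 9 genes and of Mrtfa and Mrtfb. Black points are from the counts with 95% intervals (edgeR), and open green diamonds are from TPM on the log2(TPM + 0.1) scale. The intervals of Srf and Tagln lie below 0 and those of Cnn1, Tpm2 and Mrtfb above it, before adjustment for the number of genes tested.

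Per length, the order of the levels was Acta2 (2344 TPM as the mean of the 8 libraries), Tagln (637), Cnn2 (347), Cnn1 (245), Tpm2 (156), Srf (76.8), Smtn (69.2), Myocd (47.5), Mrtfb (12.3), Mrtfa (11.9) and Myh11 (0.421). The ranges over the 8 libraries overlapped for the neighbours Srf and Smtn and for Mrtfb and Mrtfa, and were apart for every other pair of neighbours. Acta2 thus exceeded all the other members in each library, and Myh11 was below all of them. The place of Tagln is that of the TPM table, with the limit given above.

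For 3 members, the genes outside the lists used here with the most similar profile were sought among 9755 genes with a mean of at least 10 CPM, by Pearson's r of log2 CPM over the 8 libraries. For Srf these were Slc35f6 (r = 0.98), Ccnh (0.98), Capn2 (0.98), Itfg1 (0.97) and Slc16a10 (0.97). For Acta2 they were Nudcd3 (0.97), Rpap3 (0.97), Dcakd (0.97), Arpc4 (0.96) and Parp1 (0.96), and for Tagln they were Cobll1 (0.98), Cdk14 (0.96), Slmap (0.95), Mgrn1 (0.94) and Pld1 (0.94). No gene was shared among the 3 sets. The 8 libraries are few, so that these values only rank the genes.

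The members were set beside 61 other genes in 5 lists of SRF cofactors, SRF targets and smooth muscle genes, all of which were tested. Of these 7 were called, 6 higher and 1 lower, against 0.858% of all genes tested. That share covers 26820 genes, of which 14302 had a mean of at least 1 CPM. These lists were chosen with earlier results of these data known, so that the counts only describe them. In direction, 38 of the 61 were higher in cKO. At an unadjusted p under 0.05 there were 29, where the share over all genes was 12.8%, or 18.3% of those with a mean of at least 1 CPM. In 17 the groups did not overlap, 13 of them higher in cKO, where the shares were 6.91% and 9.96%.

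Growth-response genes, which SRF activates with ternary complex factors, had the highest median of the 5 lists, 0.44 on the log2 scale. All 9 genes of this list had a positive log2 fold change. The median is the value of Junb, at 6.27, 5.07, 4.98 and 9.76 CPM in cKO and 5.12, 4.75, 4.91 and 4.51 CPM in controls. The 3 largest values, of Egr2 (1.51), Egr3 (0.98) and Fosb (0.64), rest on few counts, with cKO means of 0.386, 1.28 and 0.946 CPM. One of the 9 was called. Egr1, a zinc-finger transcription factor induced early by growth signals, was at 29.9, 22.7, 21.2 and 21.6 CPM in cKO, while controls had 18.0, 17.1, 15.3 and 13.3 CPM. Every cKO library was above every control library, with a log2 fold change of 0.58 (SE 0.115, adjusted p = 0.0249). Fos, a subunit of the AP-1 factor, was at 7.28 ± 0.536 and 5.76 ± 0.573 CPM (SD, n = 4 each), with a log2 fold change of 0.34 (adjusted p = 0.212), and was chosen for mention after its values were seen. Mcl1, an antiapoptotic gene and the most abundant of the list, was at 168 CPM in each group (log2 fold change 0.0018, adjusted p = 0.997). Of the 3 ternary complex factors none was called, and Elk3, the most abundant, had a log2 fold change of 0.31 (adjusted p = 0.146).

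Among 15 other smooth muscle genes, 3 were called, all higher in cKO, and the median was 0.02. Kcnmb1, a regulatory subunit of the calcium-activated potassium channel of smooth muscle, was at 45.8, 45.6, 42.1 and 40.4 CPM in cKO, while controls had 32.8, 32.2, 32.4 and 35.2 CPM. The groups were well apart, with a log2 fold change of 0.39 (SE 0.063, adjusted p = 0.00849). Pdlim3, a protein of the Z-disc that binds α-actinin, was at 157 ± 28.7 and 116 ± 7.94 CPM (SD, n = 4 each), with a log2 fold change of 0.43 (adjusted p = 0.0474). Aoc3, an amine oxidase of smooth muscle and endothelium, was at 4.26 ± 0.617 and 2.31 ± 0.582 CPM, with a log2 fold change of 0.88 (adjusted p = 0.0369). Myl9, the regulatory light chain of smooth muscle myosin and the most abundant gene of the list, was at 1163 ± 34.8 CPM in cKO, while controls had 1161 ± 57.5 CPM (adjusted p = 0.996).

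Among 20 SRF targets of the actin cytoskeleton, 2 were called, both higher in cKO, and the median was 0.07. Flna, filamin A, which crosslinks actin filaments, was at 1120, 909, 775 and 981 CPM in cKO, while controls had 691, 750, 651 and 692 CPM. Its log2 fold change was 0.44 (SE 0.089, adjusted p = 0.0264). Tagln2, the widely expressed relative of Tagln, was at 298, 277, 248 and 365 CPM in cKO, while controls had 224, 214, 218 and 222 CPM, with a log2 fold change of 0.44 (SE 0.088, adjusted p = 0.0287). The cKO libraries of both genes were all above the control libraries, while those of Tagln in CPM were all below. Tpm1, the most abundant of this list, was not called (log2 fold change −0.09, adjusted p = 0.609).

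Of 14 SRF targets in striated muscle, 1 was called, and the median was −0.06. Casq2, calsequestrin of the cardiac sarcoplasmic reticulum, fell, with 12.9, 9.52, 11.5 and 10.7 CPM in cKO, while controls had 16.2, 15.9, 20.0 and 16.2 CPM. The groups did not overlap, and the log2 fold change was −0.62 (SE 0.106, adjusted p = 0.0118). Actc1, the most abundant, had a log2 fold change of −0.05 (adjusted p = 0.812).

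These 7 calls differed in how far they rested on single libraries. With each of the 8 libraries left out in turn, Kcnmb1 (adjusted p up to 0.0329) and Casq2 (up to 0.0450) were called in all 8 fits. Egr1 and Flna were called in 4, and lost the call without cKO replicate 1 or control replicate 1, 3 or 4 (adjusted p up to 0.0973 and 0.0964). Pdlim3 and Tagln2 were called in 3, and lost it without cKO replicate 1 or any 1 control library (up to 0.160 and 0.0965). Aoc3 was called in 2, without cKO replicate 3 or without control replicate 4 (up to 0.123 in the others). All 7 genes kept their direction in the 8 fits, with log2 fold changes of 0.36 to 0.43 for Kcnmb1, 0.45 to 0.65 for Egr1 and −0.70 to −0.53 for Casq2.

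**Figure D4:**
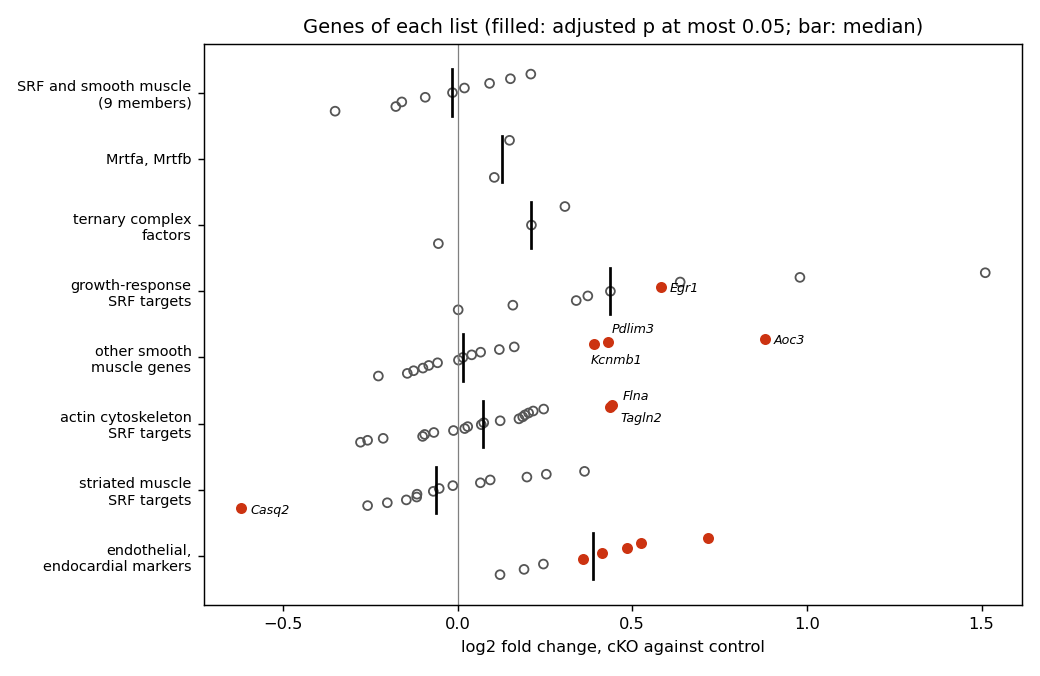
Log2 fold change, cKO against control, of each gene of the 9 members, their cofactors, 5 lists of SRF cofactors, SRF targets and smooth muscle genes, and the endothelial and endocardial markers. Each point is a gene, filled where the adjusted p was at most 0.05, and the black bar is the median of the list. The 9 members hold no filled point and a median of −0.01, and the endothelial markers lie to the right of 0.

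Marker genes of several cell types were compared between the groups, and their levels in bulk tissue do not measure cell numbers. The marker lists were also chosen with earlier results of these data known. Cardiomyocyte and ventricle markers were abundant, with Myl2, the ventricular myosin light chain, at 4685 ± 342 CPM in cKO, while controls had 5077 ± 317 CPM (SD, n = 4 each), and 0 of the 8 cardiomyocyte markers were called. In direction 6 of these 8 were lower and 2 higher, and Nkx2-5 was lower in every cKO library than in every control library (log2 fold change −0.32, adjusted p = 0.109). Of the 4 ventricle markers 3 were lower and 1 higher, and 1 was called. Hey2, a transcription factor of the compact ventricular wall, fell (log2 fold change −0.46, adjusted p = 0.00171). Irx4 was lower (−0.25, adjusted p = 0.0729) and Nppa higher (0.20, adjusted p = 0.351). All 8 endothelial and endocardial markers were higher in every cKO library than in every control library, against 6.91% of all genes tested and 9.96% of those with a mean of at least 1 CPM without overlap in either direction. Of the 8, 5 were called, against 0.858% of all genes tested (Emcn, Cdh5, Pecam1, Tie1 and Nfatc1, with log2 fold changes of 0.72, 0.53, 0.48, 0.41 and 0.36). With a library left out in turn, Hey2 was called in all 8 fits, Emcn and Nfatc1 in 4, Cdh5 in 3, and Pecam1 and Tie1 in 2, and the direction of each stayed the same. The summed level of the 8 endothelial markers was 1430 to 1763 CPM in cKO, while controls had 1121 to 1306 CPM. More such cells and more of their RNA per cell cannot be told apart in bulk tissue. Endothelial cells also express Flna, Tagln2 and Egr1, and the part of these cells in the higher values of the lists was not tested.

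Other markers were those of cells that could bring smooth muscle transcripts with them. Of 7 mural cell markers 5 were higher and 0 were called, with a summed level of 574 to 703 CPM in cKO, while controls had 556 to 635 CPM. Abcc9, Mcam and Cspg4 made up most of these sums. Rgs5 had means of 3.27 CPM in cKO and 2.78 CPM in controls, and Kcnj8 of 0.578 and 0.604 CPM. Of 8 markers of the outflow tract and second heart field 0 were called, and their sums were 218 to 257 and 196 to 230 CPM. Cxcl12 was the largest part of these sums, with means of 115 CPM in cKO and 82.5 CPM in controls. Isl1, Tbx1 and Fgf8 had means under 1 CPM in both groups. In direction 5 of the 8 were higher and 3 lower in cKO. Of 8 cushion mesenchyme markers 1 was called, Vcan, a matrix proteoglycan, with a log2 fold change of 0.36 (adjusted p = 0.0415, and called in 1 of the 8 fits with a library left out, the fit without cKO replicate 3), and the summed level of the 8 was 2247 to 2669 CPM in cKO, while controls had 1850 to 2204 CPM. Vcan made up most of that sum. The other 7 cushion markers summed to 458 to 523 CPM in cKO and 482 to 565 CPM in the control libraries. These sums overlapped, with the lower mean in cKO. Tbx20, itself lower in cKO, made up most of them, with means of 332 CPM in cKO and 374 CPM in controls. Of all 8 cushion markers 5 were higher and 3 lower in cKO. All 6 epicardial markers had a lower mean in cKO, with 0 called, and the sums overlapped at 255 to 372 and 345 to 391 CPM. Upk3b was the largest part of these sums, with means of 143 CPM in cKO and 164 CPM in controls. Aldh1a2 had the lowest log2 fold change (−0.59, adjusted p = 0.0666), with overlapping groups. Tbx18 (−0.30, adjusted p = 0.104) was lower in every cKO library than in every control library. The defining gene of differentiated smooth muscle, Myh11, was under 2 CPM in all 8 libraries, beside Acta2 above 2000 CPM.

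Macrophage markers were rare, with sums of 6.12 to 29.7 CPM in cKO, while controls had 2.90 to 7.92 CPM, and 2 of 7 were called, C1qb and C1qc, which kept the call in 4 and 7 of the 8 fits with a library left out. Erythroid markers varied widely within both groups, with sums of 1348 to 4747 and 1480 to 4591 CPM, and 0 of 6 were called. The part of any of these cells in the values of the 9 members was not tested.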

How the data were processed

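Poly(A) RNA of ventricular tissue was sequenced in 8 libraries, 4 cKO and 4 control. Both deposited tables hold 1 column per library, one with unnormalized read counts by gene symbol and the other with TPM (length-scaled abundance) made by the authors. The submitters' processing notes name Trim Galore 0.6.7, HISAT2 2.2.1, StringTie 2.2.1 and featureCounts, without roles. The settings for strand and for reads on more than 1 gene are not given in the sources used here. The notes name GRCm39, while positions in the TPM table are those of GRCm38 and are given as such. The exon overlap is from GENCODE vM39 on GRCm39, matched by gene, without coordinates.

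Counts were tested with edgeR 4.0.16 in R 4.3.3 (quasi-likelihood F test, TMM, condition alone) for the 26820 genes whose counts summed to at least 8, with Benjamini-Hochberg adjustment. No file gives gene lengths. Single values were compared by two-sided exact permutation over the 70 groupings of 4 against 4, on log2 CPM (prior count 2) or log2(TPM + 1). DESeq2 1.42.0, limma 3.58.1 (voom, and log2 TPM with pseudocounts of 1 and 0.1), other normalizations and filters, a replicate block and each library left out in turn were the alternatives. The test was also run on simulated counts. CArG boxes were searched by exact match, and with 1 inner mismatch.

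The members and lists were chosen with earlier results of these data known. Named were all members, Mrtfa, Mrtfb, Pkn2, the called genes of each list (at most 5), the most abundant gene of each list (by TPM) where the list is described in detail, and the 5 nearest profiles of 3 members. Further genes were named after their values were seen, to show what a sum, a median or a ratio rests on. Labels number the libraries without naming embryos or litters, so that p-values measure the spread between these libraries. Total counts were 47559845 to 56660938 per library, and counting error is largest for genes with few counts, such as Myh11 with 61 to 92.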

Additional observations from a re-analysis of the deposited data

How the results depend on the processing

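No member was called in 16 of the 17 alternative fits, and Tpm2 was called in 1, without cKO replicate 3. With each library left out in turn, 0 to 1 members and 2 to 15 of the 61 other list genes were called, beside 0 and 7 in the main analysis. Of those 61, DESeq2 called 16, no filter on low counts called 11, and limma on log2 TPM called 0 with either pseudocount. Over all genes, 230 calls became 867 with DESeq2, 878 with no filter, 1 and 7 on log2 TPM with pseudocounts of 1 and 0.1, and 68 to 762 with a library left out. With a library left out, the 61 genes gave 2 calls without cKO replicate 1, control replicate 1 or control replicate 3, 4 without control replicate 2 or 4, and 15 without cKO replicate 3. The cause of these differences was not tested. Srf, Myocd, Acta2, Tagln, Cnn1, Tpm2, Mrtfa and Mrtfb kept their direction in all 17 fits. The log2 fold change of Srf ran from −0.20 to −0.15, with adjusted p from 0.0507 to 0.374, and that of Tagln from −0.40 to −0.28, with adjusted p from 0.0658 to 0.549. Cnn2, Smtn and Myh11, all near 0, changed sign. On log2 TPM Cnn2 was 0.029 with either pseudocount. With each library left out in turn, Cnn2 ran from −0.054 to 0.056 and was above 0 without cKO replicate 3, cKO replicate 4 or control replicate 4. Smtn ran from −0.011 to 0.076 and was below 0 without cKO replicate 2 or control replicate 3, and Myh11 ran from −0.047 to 0.22 and was below 0 without control replicate 3. Groups did not overlap for 3 members in CPM and 2 in TPM, the latter comparison chosen after seeing the data, as were the alternatives for the other lists. Allowing 1 mismatch raised the members with a CArG box from 2 to 3. The order of levels by CPM per kilobase was not run, because the files give no gene length.

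With the replicate number as a replicate block, 0 members, 8 of the other list genes and 380 genes in all were called. The block was not used as the main design, because same-numbered cKO and control libraries did not deviate together (r = −0.19, −0.03, 0.01 and −0.14 over 14302 genes). Depth was not tested as a limit on any single gene, and Myh11 rests on 61 to 92 counts per library.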

Other observations

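Hspb7, a small heat shock protein of heart muscle in the list of striated muscle SRF targets, was chosen for mention after its values were seen. It was at 883, 422, 469 and 820 CPM in cKO and at 440, 831, 916 and 914 CPM in controls. The 8 libraries fell into a low and a high range that cut across the groups, with cKO replicates 2 and 3 and control replicate 1 in the low range. On the log2 scale cKO differed by −0.26 (SE 0.228, adjusted p = 0.733).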
